A study of Homo sapiens with 2 samples.

Results

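The miR-34 and miR-449 family was followed in small RNA libraries of K562 cells, a human erythroleukaemia line that grows in suspension. The members were the rows of the deposited table named as arms of miR-34a, miR-34b, miR-34c, miR-449a, miR-449b and miR-449c, chosen by name and not by level. All 9 names were found, out of 2218 listed mature miRNAs. The control library came from K562 cells given a GFP lentivirus. The other came from K562 cells given a QKI5-overexpressing lentivirus. QKI5 is the form of Quaking, an RNA-binding protein, that resides in the nucleus. Both groups share the cell line, the growth medium and the lentiviral transduction, and each group has 1 library. No difference below therefore has a replicate check, and no p-value for an effect of QKI5 is given.

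miR-34a is a direct transcriptional target of p53, and in many cell types it slows the cell cycle and favours cell death by repressing genes such as MYC, BCL2, SIRT1, CDK4 and CDK6. miR-34b and miR-34c come from 1 shared transcript, and the miR-449 miRNAs come from an intron of CDC20B. Those clusters are best known from cells with motile cilia, such as airway epithelium. K562 cells lack working p53, and miR-34a has been studied in these cells as a miRNA that rises when they are driven towards megakaryocytes. The part of a miRNA that finds its targets is the seed, bases 2 to 8 from the 5′ end, and the main arms of this family share a seed core.

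The mature sequences are shown because the family is defined by them and because near-identical members can share reads. Of the 9 members, 8 matched a RefSeq mature miRNA (build GRCh38.p14), and miR-34c-5p is named only. Capitals mark the seed. The first 3 sequences share the seed GGCAGUG and the next 2 share AGGCAGU, the same core moved by 1 base. The last 3 are 3p arms, each with a seed of its own.
hsa-miR-34a-5p: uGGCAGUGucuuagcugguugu
hsa-miR-449a: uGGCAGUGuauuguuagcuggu
hsa-miR-449b-5p: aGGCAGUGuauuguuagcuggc
hsa-miR-34b-5p: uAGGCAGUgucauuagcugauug
hsa-miR-449c-5p: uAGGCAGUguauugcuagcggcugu
hsa-miR-34a-3p: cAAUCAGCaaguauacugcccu
hsa-miR-34b-3p: cAAUCACUaacuccacugccau
hsa-miR-34c-3p: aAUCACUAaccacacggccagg

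miR-449a and miR-449b-5p were identical at 20 of 22 bases and differed only at the ends, by U1A and U22C, counted from the 5′ end of miR-449a with the base of miR-449a first. miR-34a-5p and miR-449a were identical at 15 of 22 aligned bases. Among all listed miRNAs with a RefSeq sequence, which leaves out miR-34c-5p, the seed GGCAGUG occurred only in its 3 members. The seed AGGCAGU was also found in miR-2682-5p, which is no member and had 2 reads in each library.

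In RefSeq, on GRCh38.p14, the hairpin of miR-34a lies at chr1:9151668-9151777 on the minus strand, within an exon of the host gene MIR34AHG in GENCODE release 29. The hairpins of miR-34b (chr11:111512938-111513021) and miR-34c (chr11:111513439-111513515) lie on the plus strand with 417 bases between them. The hairpins of miR-449a (chr5:55170532-55170622), miR-449b (chr5:55170646-55170742) and miR-449c (chr5:55172262-55172353) lie on the minus strand inside an intron of CDC20B. The submitters' processing notes name the build hg19, so these positions describe the genes and are not the authors' coordinates.

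The hairpin of miR-34a is printed with both mature arms in capitals, since its 5p arm was the most abundant member of the family in both libraries.
MIR34A: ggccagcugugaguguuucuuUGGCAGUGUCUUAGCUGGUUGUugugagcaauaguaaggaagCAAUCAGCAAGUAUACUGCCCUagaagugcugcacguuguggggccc

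QKI proteins are known to bind RNA at short sites with the core ACUAAC or ACUAAU, so the hairpins were searched for these letters. The motif ACUAAC was present in 2 of the 6 family hairpins, those of miR-34b and miR-34c, and in both it lies in the 3p arm, marked here in capitals.
hsa-miR-34b-3p: caaucACUAACuccacugccau
hsa-miR-34c-3p: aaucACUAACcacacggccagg
Of 1560 RefSeq hairpins, 12 (0.769%) held ACUAAC, and of 2370 mature miRNAs 8 (0.338%) held it. ACUAAU was in 0 of the 6 family hairpins and in 12 of all hairpins. On the other strand neither motif occurred in the 6, against 1.79% of all hairpins with either. A match of letters is a description and shows no binding.

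The values were read as reads per 1000000 reads of the library (RPM), and the reads behind each level follow from the value of a single read. On that scale the GFP library rested on 23262340 reads and the QKI5 library on 6553945, a depth 3.55 times as large for GFP. With GFP 1 read was 0.0430 RPM, and with QKI5 it was 0.153 RPM. A count of 0 was taken to allow up to 3 reads, 0.129 RPM and 0.458 RPM. Each interval below is an exact 95% interval from these reads and covers counting error only, since without molecular identifiers several reads can stem from 1 molecule. The erythroid miRNAs fixed as markers (miR-451a, both arms of miR-144, miR-486-5p and miR-210-3p) were all detected, with a summed level of 3982 RPM with GFP and 3285 RPM with QKI5. Most of the sum was miR-451a, at 2798 and 2187 RPM. The ratios of the markers, QKI5 over GFP, ran from 0.535 for miR-144-3p to 1.91 for miR-210-3p.

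The family was rare in both libraries and higher in the QKI5 library. Its 9 members together had 285 reads in the GFP library, 12.3 RPM (10.9 to 13.8), and 361 reads in the QKI5 library, 55.1 RPM (49.5 to 61.1). The ratio of the summed level, QKI5 over GFP, was 4.50 (3.84 to 5.27). Of all reads on listed miRNAs, the members made up 0.00185% with GFP and 0.00926% with QKI5. Without miR-34a-5p the ratio of the summed level was 3.30 (2.66 to 4.08), so the difference was not held by that miRNA alone.

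**Figure D1:**
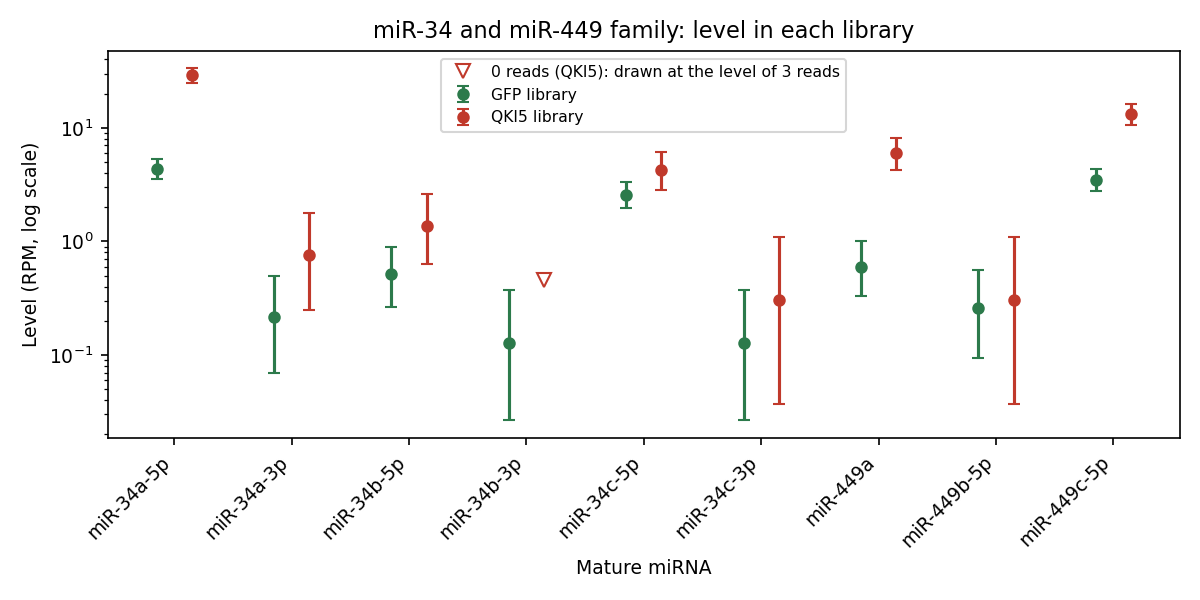
Level of each of the 9 members in RPM (log axis) in the GFP library (green) and the QKI5 library (red). Points are single libraries, bars are exact 95% Poisson intervals of the reads, and the open triangle is a count of 0 drawn at the level of 3 reads. The intervals of the libraries do not overlap for miR-34a-5p, miR-449a and miR-449c-5p.

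hsa-miR-34a-5p, the guide strand and the classical p53 target of the family, had 101 reads in the GFP library (4.34 RPM, 3.54 to 5.28) and 190 reads in the QKI5 library (28.99 RPM, 25.0 to 33.4). It stood at rank 401 of the 2218 miRNAs by level in the GFP library and at rank 252 in the QKI5 library. Its ratio was 6.68 (5.22 to 8.59). Among the 327 miRNAs with at least as many reads over both libraries, this ratio ranked 2.

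hsa-miR-34a-3p, the passenger strand of the same hairpin, had 5 reads in each library, or 0.215 RPM with GFP and 0.763 RPM with QKI5. Its ratio of 3.55 had an interval of 0.817 to 15.4, so a difference was not detectable at this depth. The 5p arm held 95.3% of the reads of the hairpin in the GFP library (89.3% to 98.5%, 106 reads) and 97.4% in the QKI5 library (94.1% to 99.2%, 195 reads). The odds ratio between the libraries was 1.88 (0.421 to 8.36), an interval that includes no change of arm balance and also several-fold shifts either way.

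hsa-miR-449a, a seed mate of miR-34a that represses cell cycle genes, had the highest plain ratio of the 9 members. It had 14 reads in the GFP library (0.602 RPM, 0.329 to 1.01) and 39 reads in the QKI5 library (5.95 RPM, 4.23 to 8.13). The ratio was 9.89 (5.25 to 19.7), which ranked 7 among the 510 miRNAs with at least as many reads. The reads are few, and the lower end of the interval lies close to that of miR-34a-5p. With log2(RPM + 1), which damps low values, the difference was 2.12 for miR-449a, against 3.31 for the plain log2 ratio, and miR-34a-5p was then higher, at 2.49.

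hsa-miR-449c-5p, the most abundant miRNA of the CDC20B intron here, had 81 reads in the GFP library (3.48 RPM, 2.77 to 4.33) and 86 reads in the QKI5 library (13.1 RPM, 10.5 to 16.2). Its ratio was 3.77 (2.75 to 5.17), ranked 13 of 388. miR-449b-5p, by contrast, had 6 reads with GFP (0.258 RPM) and 2 with QKI5 (0.305 RPM). Its ratio of 1.18 (0.117 to 6.62) has an interval that includes 1 and also the ratio of miR-449c-5p.

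The sources used here do not say to which of miR-449a and miR-449b-5p a read matching both was assigned. Added together, these seed mates had 20 reads with GFP and 41 with QKI5, a ratio of 7.28 (4.17 to 13.1). The arms of the cluster that are no members were miR-449b-3p and miR-449c-3p. miR-449b-3p had 5 reads with GFP and 10 with QKI5, a ratio of 7.10 (2.21 to 26.5). miR-449c-3p had 11 and 4 reads, a ratio of 1.29 (0.300 to 4.36).

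For the miR-449b hairpin the 3p arm was the more frequent one with QKI5, where the 5p arm held 16.7% of 12 reads (2.09% to 48.4%). In the GFP library the 5p arm held 54.5% of 11 reads (23.4% to 83.3%). The intervals overlap. These shares also depend on how reads matching both miR-449b-5p and miR-449a were assigned, which is not known. For miR-449c the 5p arm held 88.0% of 92 reads with GFP (79.6% to 93.9%) and 95.6% of 90 reads with QKI5 (89.0% to 98.8%), again with overlapping intervals.

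hsa-miR-34c-5p, the main product of the chromosome 11 pair, differed least among the members with more than 25 reads in a library. It had 60 reads in the GFP library (2.58 RPM, 1.97 to 3.32) and 28 reads in the QKI5 library (4.27 RPM, 2.84 to 6.17). Its ratio was 1.66 (1.02 to 2.64), below 2-fold, with an interval that only just excludes 1. miR-34b-5p, made from the same transcript, had 12 reads with GFP (0.516 RPM) and 9 with QKI5 (1.37 RPM), a ratio of 2.66 (0.991 to 6.88).

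The 3p arms that carry the ACUAAC letters were at or under 3 reads in both libraries. miR-34b-3p had 3 reads with GFP and 0 with QKI5, and miR-34c-3p had 3 and 2. No fold is given for either. The 5p arm of miR-34b held 12 of 15 reads with GFP (51.9% to 95.7%) and all 9 reads with QKI5 (lower limit 66.4%). The 5p arm of miR-34c held 95.2% of 63 reads with GFP (86.7% to 99.0%) and 93.3% of 30 reads with QKI5 (77.9% to 99.2%).

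By locus, the 2 arms of miR-34a had a summed ratio of 6.53 (5.13 to 8.35), the 3 members of the miR-449 cluster 4.46 (3.41 to 5.85) and the 4 arms of miR-34b and miR-34c 1.77 (1.18 to 2.64). The interval of the miR-34b and miR-34c locus does not overlap those of the other two. By seed, the sequence-matched members with GGCAGUG summed to 5.20 RPM with GFP and 35.2 RPM with QKI5, a ratio of 6.78 (5.41 to 8.51). Matched members with AGGCAGU summed to 4.0 and 14.5 RPM, a ratio of 3.63 (2.70 to 4.88). miR-34c-5p is in neither sum, because its mature sequence was not matched. Its hairpin holds the letters AGGCAGUG, which contain both seeds. Its ratio, 1.66, is below both, so the ratio of the seed it belongs to would be lower with it.

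**Figure D2:**
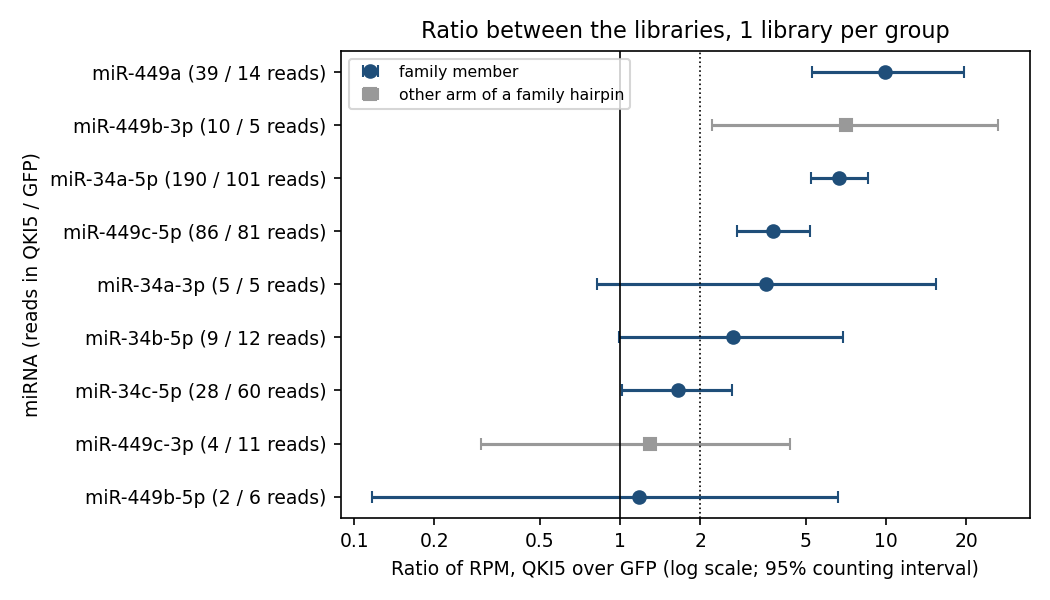
Ratio of RPM, QKI5 over GFP (log axis), for the 7 members with more than 3 reads in a library (blue circles) and for the other arms of the miR-449b and miR-449c hairpins (grey squares), with exact 95% counting intervals. The solid line marks a ratio of 1 and the dotted line a ratio of 2, and the intervals of the members miR-34a-5p, miR-449a and miR-449c-5p, and of miR-449b-3p, which is no member, lie wholly above 2.

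Of the 9 members, 7 had more than 3 reads in a library, and 6 of these 7 had them in both, the exception being miR-449b-5p. All 7 ratios were above 1, as were 57.1% of the ratios of all miRNAs with more than 3 reads in a library. The ratio was at least 2 for 5 of the 7 and at most 0.5 for 0. Over all 1052 miRNAs with more than 3 reads in a library, 25.8% were at least 2-fold higher with QKI5 and 8.46% at least 2-fold lower. The interval lay wholly above 2-fold for 3 of the 7 members, against 9.60% of all, and wholly below for 0, against 1.90%.

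Low counts scatter widely, so the 556 miRNAs within the range of the members, 8 to 291 reads over both libraries, are also given. Of these, 32.0% had a ratio of at least 2 and 11.2% a ratio of at most 0.5. The interval lay wholly above 2-fold for 9.53% of them and wholly beyond 2-fold lower for 0.719%. The median log2 ratio was 1.83 over the 7 members and 0.24 over all 1052 miRNAs. On the log2(RPM + 1) scale the members' median was 0.65.

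**Figure D3:**
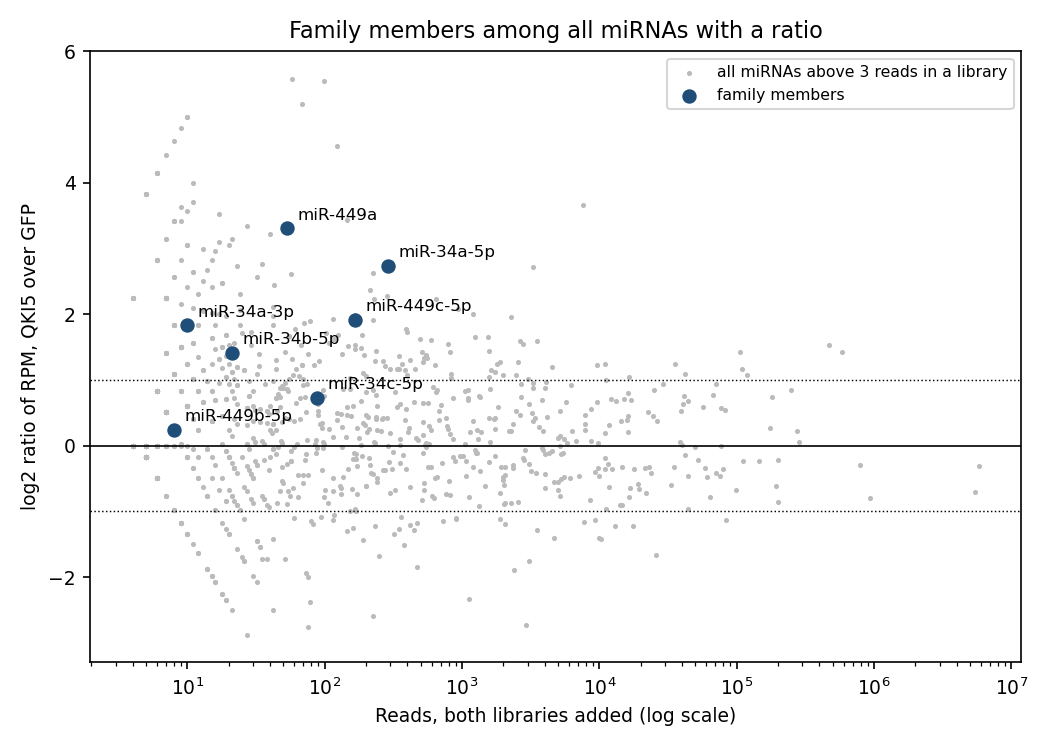
Each point is 1 of the 1052 miRNAs with more than 3 reads in a library, by its reads in both libraries added (log axis) and its log2 ratio of RPM, QKI5 over GFP. Members are in blue, and dotted lines mark 2-fold. The 7 members lie above 0, and most miRNAs with more reads than miR-34a-5p lie within 2-fold.

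The proportions of the members to one another differed between the libraries, a comparison within each library that does not depend on the scaling of the columns. There were 1.68 reads of miR-34a-5p per read of miR-34c-5p with GFP and 6.79 with QKI5, 4.03 times as many (2.36 to 6.97). Reads of miR-449a per read of miR-34c-5p were 5.97 times as many with QKI5 (2.64 to 13.8), and reads of miR-449c-5p per read of miR-34c-5p 2.28 times (1.28 to 4.08). Within the CDC20B intron, miR-449a per miR-449c-5p was 2.62 times as high (1.27 to 5.62). miR-34a-5p per miR-449c-5p was 1.77 times as high (1.18 to 2.66).

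Between miR-34a-5p and miR-449a no shift was detectable, with a ratio of ratios of 0.675 (0.323 to 1.34). Of the 6 pairs among these 4 miRNAs, 5 had a counting interval that excludes 1. The same 5 did so when the intervals were widened for 6 comparisons by the Bonferroni rule. For miR-449a per miR-449c-5p the widened interval was 1.02 to 7.30. Contrasts with miR-449a, and so this count, depend on how reads matching both miR-449a and miR-449b-5p were assigned, which is not known. These intervals hold for this pair of libraries and say nothing of the spread between cultures.

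**Figure D4:**
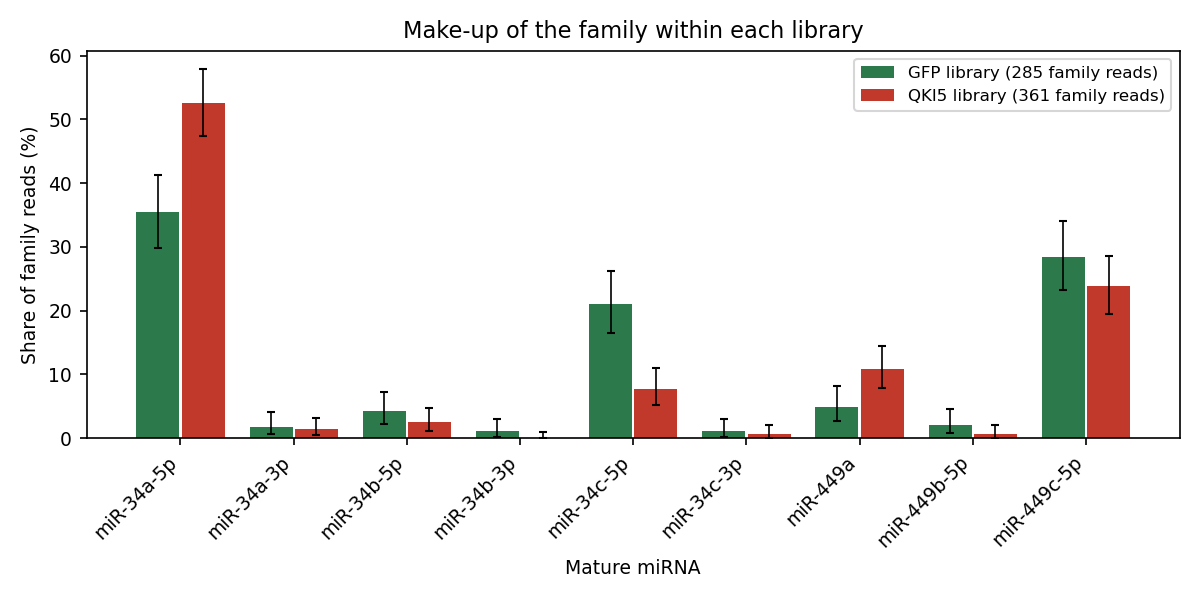
Share of the family's reads held by each member within the GFP library (green, 285 reads) and the QKI5 library (red, 361 reads), in percent, with exact 95% binomial intervals. miR-34a-5p holds 35.4% with GFP and 52.6% with QKI5, and miR-34c-5p holds 21.1% and 7.76%.

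miR-34a-5p held 35.4% of the family's reads with GFP (29.9% to 41.3%) and 52.6% with QKI5 (47.3% to 57.9%). miR-34c-5p held 21.1% (16.5% to 26.3%) and 7.76% (5.22% to 11.0%). In the GFP library miR-34a-5p, miR-449c-5p and miR-34c-5p followed each other without a neighbour differing beyond counting error, and miR-34c-5p exceeded the next, miR-449a, 4.29-fold (2.37 to 8.30). Below miR-449a no neighbours differed.

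In the QKI5 library miR-34a-5p exceeded miR-449c-5p 2.21-fold (1.70 to 2.88), and miR-449c-5p exceeded miR-449a 2.21-fold (1.49 to 3.31). miR-449a and miR-34c-5p did not differ beyond counting error, and miR-34c-5p exceeded miR-34b-5p 3.11-fold (1.43 to 7.49). The levels compare reads per library and carry no term for length, and the matched mature sequences of the members are 22 to 25 bases long.

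Other miRNAs tied to p53, either as its transcriptional targets or through processing that p53 favours, were taken from a list of 12, of which 11 were in the table. Of these 11, 5 were at least 2-fold higher with QKI5, where the share over all miRNAs was 25.8%, and 0 were lower, against 8.46%. Among the 5, miR-215-5p (11 reads with GFP, 13 with QKI5), miR-143-3p (7 and 11) and miR-203a (11 and 9) had few reads. Their intervals reached below 2-fold. In the range of low reads above, 32.0% of miRNAs were at least 2-fold higher. The list's median log2 ratio was 0.84. The interval lay wholly above 2-fold for 2 of them, against 9.60% of all miRNAs. miR-192-5p, which arrests the cell cycle, was at 81.2 RPM with GFP and 245 RPM with QKI5, a ratio of 3.02 (2.82 to 3.23). miR-1246, whose sequence is also found in the U2 small nuclear RNA, had 16 and 106 reads, a ratio of 23.5 (13.8 to 42.6). Higher too were 3 other entries known to overlap structural RNAs, chosen after their values were seen. Their ratios were 47.9 (17.7 to 182) for hsa-miR-1290, 46.6 (21.8 to 119) for hsa-miR-4485 and 10.7 (7.31 to 16.1) for hsa-miR-1973. Not all such entries were higher. The ratio was 0.790 (0.774 to 0.807) for hsa-miR-1260a and 0.842 (0.618 to 1.13) for hsa-miR-3607-5p, also chosen after their values were seen. These examples do not stand for all such entries, which were not examined as a class. Listed miRNAs made up 66.3% of the library total with GFP and 59.5% with QKI5. The part of such fragments in the ratio of miR-1246 was not tested. The most abundant of the list, miR-16-5p, was at 7083 RPM with GFP and 12705 RPM with QKI5, a ratio of 1.79 (1.78 to 1.81). miR-15a-5p, from a hairpin beside a miR-16 hairpin, had a ratio of 0.747 (0.732 to 0.762).

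In a list of 12 miRNAs studied in megakaryocytes, without miR-34a-5p, 10 had more than 3 reads in a library. At least 2-fold higher with QKI5 were 4 of the 10, against 25.8% of all miRNAs, and 0 were lower, against 8.46%. The interval lay wholly above 2-fold for 3, against 9.60% of all. These were miR-126-3p, with a ratio of 2.69 (2.68 to 2.71), miR-27a-3p, with 2.89 (2.88 to 2.91), and miR-130a-3p, with 2.79 (2.06 to 3.77). The list's median log2 ratio was 0.33, close to the 0.24 of all miRNAs.

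Because miR-34b, miR-34c and miR-449 are abundant in ciliated epithelium, epithelial markers are given beside them. All 7 (miR-200a-3p, miR-200b-3p, miR-200c-3p, miR-141-3p, miR-429, miR-205-5p and miR-203a) had reads in both libraries. Their summed level was 70.1 RPM with GFP and 85.6 RPM with QKI5. At least 2-fold higher with QKI5 were 4 of the 7, against 25.8% of all miRNAs and 32.0% in the range of low reads above. The interval of 1, miR-200b-3p with a ratio of 4.30 (2.24 to 8.34), lay wholly above 2-fold, against 9.60% of all. The most abundant with GFP, miR-141-3p, had a ratio of 0.727 (0.616 to 0.853). The 3 muscle markers reached 0.344 RPM with GFP and 2.90 RPM with QKI5 in sum, with miR-206 at 0 reads with QKI5. The 2 with more than 3 reads in a library were both at least 2-fold higher with QKI5, against 25.8% of all miRNAs. miR-1 had 4 reads with GFP and 13 with QKI5, a ratio of 11.5 (3.56 to 48.6). miR-133a-3p had 2 and 6 reads, a ratio of 10.6 (1.90 to 108). Only the interval of miR-1 lay wholly above 2-fold, against 9.60% of all. Neuronal markers summed to 807 and 825 RPM, with miR-124-3p at 0 reads with GFP, and the 3 leukocyte markers to 19084 and 20864 RPM. The most abundant with GFP were miR-9-5p, with a ratio of 0.878 (0.838 to 0.921), and miR-223-3p, with 1.04 (1.03 to 1.05). The part of other cells in the family's levels was not tested.

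The miRNAs whose ratio was nearest to that of miR-34a-5p, among 431 with at least 100 reads over both libraries, were miR-2392, with a ratio of 6.60 (6.14 to 7.10), miR-935, with 6.19 (4.69 to 8.22), and miR-628-5p, with 5.18 (3.91 to 6.89). The measure of likeness is the difference in log2 ratio over 2 libraries. miR-935 and miR-628-5p were also near miR-34a-5p in level, at 3.53 and 3.74 RPM with GFP and 21.8 and 19.4 RPM with QKI5.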

How the data were processed

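Small RNA from K562 cells was sequenced on an Ion Proton instrument after enrichment with a miRNA isolation kit, per the labels' protocols. Bowtie 0.12.3 and hg19 are named, per the submitters' processing notes. The sources used here give no miRNA annotation, mismatch limit, rule for multiple mapping or use of strand. The table's name says RPKM, but the deposited values are RPM: 100.0% of the values above 0 were whole multiples of 1 step per column, within 0.1 of a read. Reads were recovered from those steps.

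Ratios are QKI5 over GFP, with exact conditional binomial (Clopper-Pearson) intervals at 95%. A 0 was set to 3 reads, and the ratio to 1 where that floor exceeded the other library. Since the GFP library was deeper, this rule limits low ratios at few reads more than high ones. Level intervals are exact Poisson, and pair contrasts are conditional odds ratios. The steps were tested on simulated Poisson counts that left out the rarest miRNAs. That test therefore does not cover the members with fewest reads, such as miR-34a-3p and miR-449b-5p. As an alternative, an exact binomial test on those reads (Benjamini-Hochberg at 0.05), which compares these libraries and not the conditions, called 426 of 1995 detected miRNAs and 3 of the 9 members, without a dispersion between cultures.

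All 9 members are named, with the other arms of their hairpins, seed mates, the most abundant and the clearly different miRNAs of each list, and the 3 nearest in ratio. Members and lists were chosen with earlier results of these data known. miR-15a-5p, a further list member, was chosen after its value was seen. Tools were scipy 1.17.1, pandas 2.3.3 and numpy 2.4.6 under Python 3.11.15.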

Additional observations from a re-analysis of the deposited data

How the results depend on the processing

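No paired analysis was possible because each group has 1 library, and no library could be left out. The counts of members at least 2-fold higher (4 to 6) and lower (0), the count with an interval beyond 2-fold (3 or 4) and the family's summed ratio (4.17 to 5.01) stayed within 1.5 times of the reported values, or within the counting interval, under the settings run for each. The exact binomial test (3 members) and the inclusion of miR-449b-3p and miR-449c-3p (6 of 9 at least 2-fold higher) were chosen after seeing the data. No log2 ratio of the 7 members changed sign under the settings run. The median log2 ratio of the members, 1.83, moved to 1.98 when each column was divided by its own miRNA total, 1.72 with the 10 most abundant miRNAs left out of the scaling, 2.02 with GFP reads thinned to the depth of QKI5 in 1 random draw, 1.41 over members with a read in either library, 1.32 with a pseudocount of 1 QKI5 read and 0.65 with a pseudocount of 1 RPM. By construction a pseudocount shrinks the ratios of miRNAs with few reads. Division by the miRNA totals moved every log2 ratio up by 0.16. With a linear GC trend removed, miR-34a-5p was at 2.59, miR-449a at 3.28 and miR-449c-5p at 1.71. With a pseudocount of 1 RPM, miR-449a (2.12) stood below miR-34a-5p (2.49). Depth limits the members with few reads, miR-34a-3p, miR-34b-5p and miR-449b-5p, whose intervals include 1, and miR-34b-3p and miR-34c-3p, which have no ratio.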
